A study of Mus musculus with 17 samples.

Results

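Il7r, Rag1, Rag2, Cd79b and Cd4 are 5 genes that lymphocytes and their precursors use to receive survival signals, to rearrange their antigen receptor genes and to assemble and assist those receptors. They were described here in myeloid progenitors, as 5 of the 24416 genes in the deposited tables. The genes were chosen by name, with earlier results of these data known. Their reads were summed over RefSeq transcripts in each of 17 libraries and set across the 7 labelled groups. The cells were common myeloid progenitors, the sorted precursors of granulocytes, macrophages, platelets and red cells, from mouse fetal liver or adult bone marrow.

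Lymphoid priming is the low expression of lymphocyte genes in progenitors that have not yet committed to a lineage. In the textbook sequence, the IL-7 receptor passes survival and growth signals to early lymphoid cells through JAK and STAT5 proteins, the RAG1 and RAG2 proteins together cut antigen receptor genes at recombination signals, CD79B carries the signal of the B cell receptor, and CD4 is a coreceptor of helper T cells. Common myeloid progenitors are usually sorted as cells without IL-7 receptor on their surface, but no label states the gate used for these samples.

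The groups were fetal liver libraries labelled Lin28b knockout (3 libraries), fetal liver with inducible let-7 (1 library), bone marrow of let-7b/c knockout mice (3), bone marrow with inducible LIN28B (2), bone marrow with inducible LIN28B and vavcre (2), wild-type bone marrow (3) and wild-type fetal liver (3). LIN28B is an RNA-binding protein that blocks the maturation of let-7 microRNAs, and the design text gives vavcre as induction limited to blood-forming cells. The strain was albino black 6 for the let-7b/c knockout and C57BL/6J for all other groups, so strain and knockout cannot be told apart in that group. Every library, wild type included, carries the treatment note of doxycycline exposure to induce Lin28b. No label gives an age or says whether the libraries of a group came from different animals; the p-values therefore reflect only how these libraries vary, which may be technical variation.

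Summed counts were 14957111 to 28165554 per library. The inducible let-7 library had the most counts and the fewest genes with any count, 10144 against 12079 to 15644 in the other 16. Lin28b stood at 103.8 ± 12.9 CPM (reads of a gene scaled to library size) in the libraries labelled Lin28b knockout and at 104.1 ± 17.6 CPM in wild-type fetal liver (SD, n = 3 each), so its level did not set the labelled knockout apart. The libraries labelled Lin28b knockout did stand apart in summed erythroid markers, at 28500 to 33520 CPM, against 303.4 to 989 CPM in the other 14 libraries. Mpo, the granule peroxidase of myeloid progenitors, averaged 4045 to 16860 CPM over the groups, and Flt3, a cytokine receptor of early progenitors, 37.8 to 506.1 CPM. Kit and Cebpa, also progenitor markers, were listed at 0 in every library. Both have more than 1 counted transcript, and reads that fit several transcripts were not counted.

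All 5 genes had 1 counted transcript and lie on mm10 as follows. Il7r covers chr15:9506159-9529941 on the minus strand in 8 exons. Rag1, chr2:101638252-101649532 on the minus strand in 2 exons, and Rag2, chr2:101624712-101632528 on the plus strand in 3 exons, are neighbours that are transcribed towards each other. Cd79b covers chr11:106311341-106314562 on the minus strand in 6 exons, and Cd4 covers chr6:124864693-124888247 on the minus strand in 10 exons. The gene Iftap overlaps 80 bases of the Rag1 transcript (1.21%) on the same strand and 208 bases of the Rag2 transcript (6.07%) on the opposite strand. Whether counting used the strand is not stated, so reads of these stretches cannot be assigned to either gene.

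Promoters of 300 bases, 250 before to 50 after the annotated start (RefSeq, GRCm38.p6), are shown for Il7r, Rag1 and Rag2, the 3 of the 5 genes matched in the RefSeq promoter table; Cd79b and Cd4 were not matched. Capitals mark the RUNX core TGTGGT and the ETS core AGGAAG, read on either strand, 2 motifs of blood transcription factors. Il7r is chr15:9529827-9530126, minus strand; Rag1 is chr2:101649483-101649782, minus strand; and Rag2 is chr2:101624462-101624761, plus strand.
Il7r: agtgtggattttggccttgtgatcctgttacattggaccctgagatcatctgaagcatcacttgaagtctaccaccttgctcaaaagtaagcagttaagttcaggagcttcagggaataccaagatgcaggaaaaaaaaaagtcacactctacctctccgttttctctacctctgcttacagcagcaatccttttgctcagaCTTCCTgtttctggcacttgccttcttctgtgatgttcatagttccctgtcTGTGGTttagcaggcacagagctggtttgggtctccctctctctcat
Rag1: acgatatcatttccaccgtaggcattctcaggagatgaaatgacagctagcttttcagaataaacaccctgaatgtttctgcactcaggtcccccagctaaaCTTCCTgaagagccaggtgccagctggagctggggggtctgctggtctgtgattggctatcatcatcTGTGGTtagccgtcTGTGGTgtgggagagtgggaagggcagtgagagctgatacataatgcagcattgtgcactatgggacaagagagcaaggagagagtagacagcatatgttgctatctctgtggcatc
Rag2: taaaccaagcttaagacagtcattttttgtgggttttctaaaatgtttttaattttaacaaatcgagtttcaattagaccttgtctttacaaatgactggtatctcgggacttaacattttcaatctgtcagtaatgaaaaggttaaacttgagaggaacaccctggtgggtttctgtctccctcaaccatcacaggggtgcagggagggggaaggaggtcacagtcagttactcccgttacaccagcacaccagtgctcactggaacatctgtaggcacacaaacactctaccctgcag
The Il7r promoter held 1 RUNX core, first base at +4 from the start, and 1 ETS core at -48. The Rag1 promoter held 2 RUNX cores at -81 and -67 and 1 ETS core at -148, and the Rag2 promoter held neither. Of 32851 promoters of this length, 16.8% held the RUNX core and 35.4% the ETS core. The E-box CAGNTG, bound by lymphoid E proteins among others, was present at -204 in Il7r, at -135, -128 and -85 in Rag1 and at +18 in Rag2, and in 51.4% of all promoters. The E-box at -85 shares bases with the RUNX core at -81. The Ikaros core TGGGAA (25.6% of promoters) was present in Rag1 only, at -52, and overlaps none of the capitals. These matches are letters in a window and not measured binding.

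The let-7b and let-7c microRNAs, which give the knockout its name, share 1 seed (bases 2 to 8, in capitals).
let-7b: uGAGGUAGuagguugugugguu
let-7c: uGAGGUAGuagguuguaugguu
The seed match CTACCTC was in none of the 3′ untranslated regions (UTRs) of the 5 genes. It was in 8.47% of 19290 annotated 3′ UTRs, and in 3.71% to 18.7% of those within 20% of the length of each gene's own.

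Wild-type adult marrow held far less message of the IL-7 receptor and of both recombinase genes than wild-type fetal liver. Il7r was 17.4-fold and Rag2 5.44-fold lower, Rag1 was nearly absent, and Cd4 was 2.59-fold lower. Of the 5 genes, 4 were called lower at an adjusted p under 0.05 (edgeR quasi-likelihood test, Benjamini-Hochberg over all genes), against 13.9% of 13558 tested genes called lower and 27.1% called in either direction. In bulk samples, fewer cells that express a gene and less RNA per cell cannot be told apart.

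Il7r, the ligand-binding chain of the IL-7 receptor, had 0.496, 1.76 and 2.63 CPM in the 3 wild-type bone marrow libraries, against 37.1, 24.9 and 22.8 CPM in the 3 wild-type fetal liver libraries. The highest adult library lay far below the lowest fetal one. The log2 difference was -4.12 ± 0.55 (SE, n = 3 each; edgeR adjusted p = 6.01e-05).

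Rag1, the catalytic subunit of the recombinase, had 1, 0 and 0 counts in the wild-type bone marrow libraries, against 270, 127 and 167 counts in wild-type fetal liver. No adult library passed 1 read, and each fetal library held over 100. A count of 0 allows up to 0.176 CPM (3 counts) in the shallower of these adult libraries. With 1 adult read in all, the fetal level was 539 times the adult one at equal depth (95% counting interval 96.35 to 21330, counting error only; edgeR adjusted p = 0.000124). The 1 adult read was in bone marrow library 2, so without that library the adult count was 0.

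Rag2, its partner subunit, had 6.15, 6.15 and 9.42 CPM in wild-type bone marrow, against 42.7, 38.5 and 37.0 CPM in wild-type fetal liver. Unlike Rag1, it was counted in every adult library, with 105 to 172 reads each. The log2 difference was -2.44 ± 0.33 (SE; edgeR adjusted p = 6.23e-05).

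Cd4 had 3.52, 5.15 and 6.79 CPM in wild-type bone marrow, against 15.25, 10.44 and 14.4 CPM in wild-type fetal liver. The groups did not overlap, and the log2 difference was -1.38 ± 0.41 (SE; edgeR adjusted p = 0.0200). Leaving out bone marrow library 2 (adjusted p = 0.0869) or 5 (0.0583), or fetal liver library 1 (0.0683) or 5 (0.0630), ended the call.

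Cd79b, the signalling chain of the B cell receptor, had 66.1, 62.6 and 57.55 CPM in wild-type bone marrow, against 77.1, 76.7 and 79.0 CPM in wild-type fetal liver. The ranges did not overlap, but the difference was small, 1.25-fold lower in adult marrow, and missed the threshold (log2 -0.32 ± 0.12, 95% interval -0.58 to -0.07, unadjusted; edgeR adjusted p = 0.0601). It passed with DESeq2 (adjusted p = 0.0285) and in an edgeR fit of these 6 wild-type libraries alone (0.00932).

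**Figure D1:**
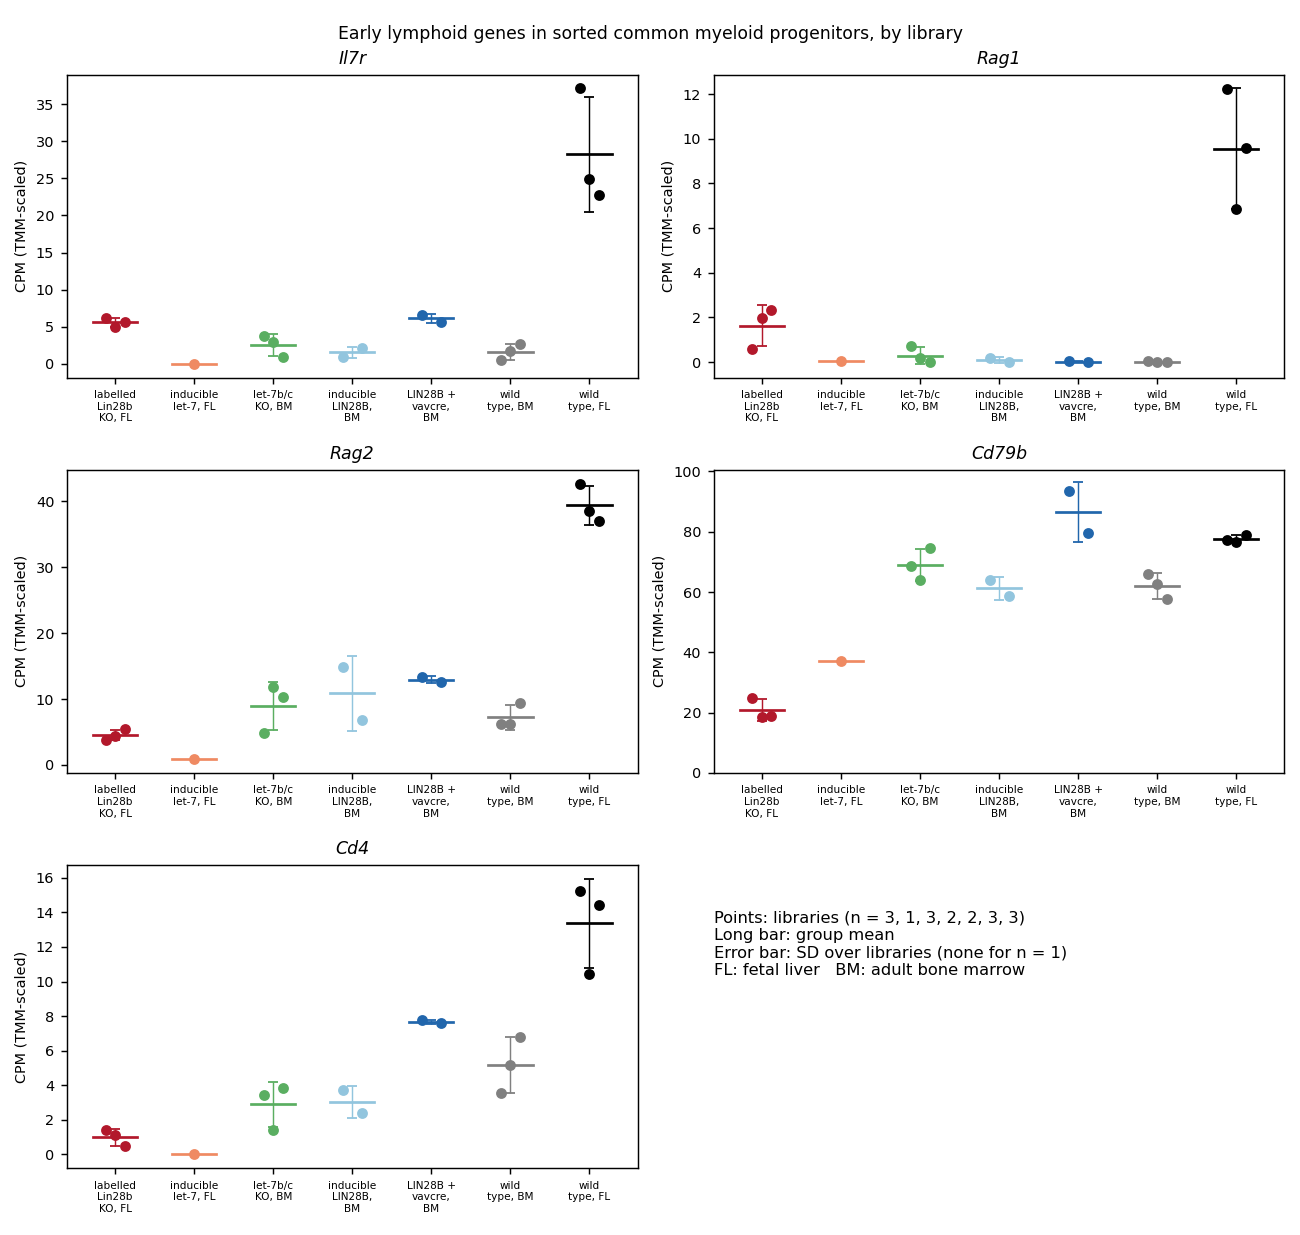
Level of each gene in CPM (vertical axis, linear, TMM-scaled) in each library (points) with the group mean (long bar) and SD (error bar), by labelled group; FL is fetal liver and BM adult bone marrow. Il7r, Rag1, Rag2 and Cd4 were highest in wild-type fetal liver, and Cd79b stood at 57.55 CPM or more in every library except those labelled Lin28b knockout and the inducible let-7 library.

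Per kilobase of transcript, which allows genes to be compared, the level in wild-type fetal liver was 64.9 CPM per kb for Cd79b, 11.5 for Rag2, 7.98 for Il7r, 4.30 for Cd4 and 1.45 for Rag1. In wild-type bone marrow the levels were 51.95 CPM per kb for Cd79b, 2.12 for Rag2, 1.66 for Cd4, 0.460 for Il7r and 0.00250 for Rag1. Cd79b was thus the most abundant of the 5 messages per length in both tissues, and Rag1 the least.

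Other genes of the same pathways did not move as 1 block between the wild-type tissues. Of 12 tested genes of V(D)J recombination and the pre-antigen receptors, 3 were lower in adult marrow and 0 higher: Rag1, Rag2 and Vpreb2, a surrogate light chain gene that had no reads in wild-type bone marrow and averaged 1.04 ± 0.61 CPM in wild-type fetal liver (edgeR adjusted p = 0.0121). The median log2 difference of that list, with Rag1, Rag2 and Cd79b counted in it, was -0.92, beside 0.08 over all tested genes. Of 12 tested genes of IL-7 receptor signalling, 1 was lower (Il7r) and 3 were higher: Bcl2, a survival factor, at 214.1 ± 10.03 CPM in wild-type bone marrow against 35.9 ± 2.9 CPM in wild-type fetal liver (5.96-fold higher, edgeR adjusted p = 6.04e-11), the kinase Jak1 (1.44-fold, 0.000411) and the STAT5 target Cish (2.33-fold, 0.0205). The list's median was -0.03. Of 12 genes of end joining and its cofactors, 2 were lower, Hmgb1, a DNA-bending protein that helps the recombinase bind and cut, and Xrcc6, a subunit of the Ku end-binding protein, and 2 were higher, the kinase genes Atm and Prkdc of the DNA break response.

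Of 21 tested lymphoid transcription factors, 5 were lower and 2 higher in wild-type bone marrow, with a median log2 difference of -0.34. Id3, an inhibitor of E proteins, averaged 0.709 ± 0.412 CPM in wild-type bone marrow and 30.7 ± 2.0 CPM in wild-type fetal liver (42.5-fold lower, edgeR adjusted p = 9.67e-07). Tcf7, a T lineage factor, averaged 2.42 ± 1.199 CPM in wild-type bone marrow and 17.5 ± 4.4 CPM in wild-type fetal liver (7.21-fold lower, edgeR adjusted p = 0.00189). Notch1, the receptor that starts the T lineage, averaged 40.7 ± 2.0 CPM in wild-type bone marrow and 77.9 ± 2.6 CPM in wild-type fetal liver (1.91-fold lower, adjusted p = 0.00520). Ikzf2 and Myb were the 2 that were higher, by 1.51-fold and 1.64-fold. Of 11 tested early lymphoid progenitor genes, 4 were lower, Notch1 and 3 of the genes described here, and 1 was higher. Flt3 did not pass, at 386.1 ± 32.1 CPM in wild-type bone marrow and 399.7 ± 17.9 CPM in wild-type fetal liver. Among all 171 genes of the 15 lists used here, 17 with more than 1 counted transcript were listed at 0 in every library, among them the lymphoid factors Ikzf1, Ebf1, Tcf3 and Bcl11b.

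Of 14 tested T cell genes, 4 were lower in wild-type bone marrow and 0 higher, with a median log2 difference of -1.04. Beside Cd4 and Tcf7 they included Cd28, a costimulatory receptor of T cells, at 1.18 ± 0.60 CPM in wild-type bone marrow and 10.46 ± 3.26 CPM in wild-type fetal liver (8.77-fold lower, edgeR adjusted p = 0.00787). Cd3e, a T cell receptor subunit, averaged 0.273 CPM in wild-type bone marrow and 0.0370 CPM in wild-type fetal liver, and Cd5, a surface marker of T cells, averaged 0.288 CPM in wild-type bone marrow and 1.21 CPM in wild-type fetal liver. Without the genes described here, the 17 other T cell markers summed to 53.3 to 57.3 CPM in wild-type bone marrow and 56.4 to 72.3 CPM in wild-type fetal liver. Such a sum can rest mostly on 1 gene. In inducible LIN28B marrow without vavcre it was 55.7 to 65.3 CPM, and Lat alone averaged 53.9 ± 3.0 CPM. The 14 other B cell markers summed to 10.8 to 17.04 CPM in wild-type bone marrow and 15.0 to 30.9 CPM in wild-type fetal liver. Of 9 tested B cell genes, Cd79b among them, 1 was higher in wild-type bone marrow and 0 lower. It was Ms4a1, at 2.02 ± 0.94 CPM there and 0.0538 ± 0.0932 CPM in wild-type fetal liver (34.7-fold, edgeR adjusted p = 0.0251). Granulocyte markers moved with the tissue, at 1375 to 2049 CPM in wild-type bone marrow and 392.7 to 490.1 CPM in wild-type fetal liver (8 of 9 higher). Macrophage markers summed to 149.5 to 181.0 CPM in wild-type bone marrow and 148.0 to 171.7 CPM in wild-type fetal liver, though 7 of 12 were higher and 2 lower. Markers of NK and innate lymphoid cells summed to 384.5 to 390.0 CPM in wild-type bone marrow and 74.7 to 87.3 CPM in wild-type fetal liver. Of 11 tested, 2 were higher and 1 lower, and most of the sum was Nkg7, a granule protein gene (367.8 ± 1.7 CPM in wild-type bone marrow, 51.2 ± 6.7 CPM in wild-type fetal liver; edgeR adjusted p = 1.04e-07). The part of these cell types in the results was not tested.

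**Figure D2:**
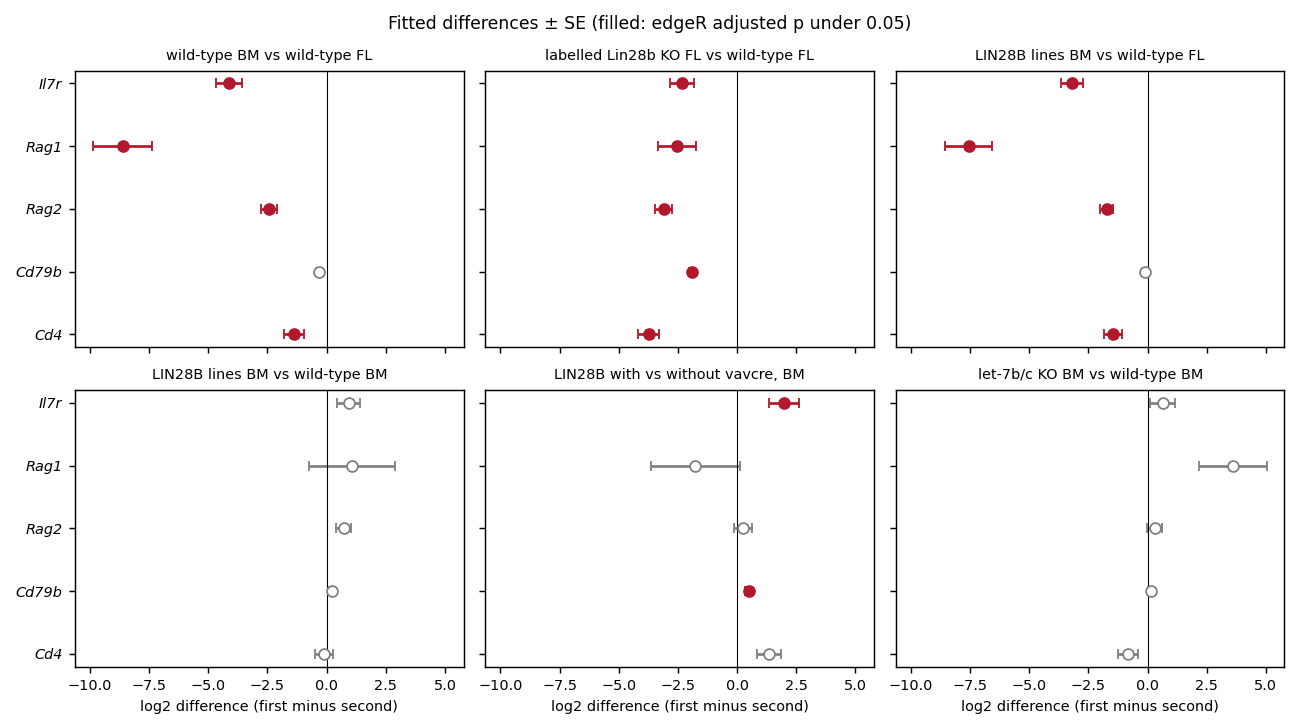
Fitted log2 differences (horizontal axis, first group minus second, edgeR) of the 5 genes in 6 comparisons, with SE bars; filled points have an adjusted p under 0.05. Against wild-type fetal liver the differences of Il7r, Rag1, Rag2 and Cd4 were all below 0, at log2 -1.38 or lower; the Rag1 values that rest on 0 to 3 reads in a library depend on the prior count.

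In the fetal liver libraries labelled Lin28b knockout, all 5 genes were lower than in wild-type fetal liver (5 of 5 called; 23.0% of tested genes were called lower and 43.8% in either direction). Cd4 was 13.4-fold, Rag2 8.63-fold, Rag1 5.83-fold, Il7r 5.03-fold and Cd79b 3.73-fold lower. A fit that also took the library numbers as a block, given at the end, called fewer of these genes and changed the sign of Rag1. The libraries labelled Lin28b knockout stood apart in other ways too, given after the values.

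Il7r had 6.21, 4.99 and 5.63 CPM in the libraries labelled Lin28b knockout, against 37.1, 24.9 and 22.8 CPM in wild-type fetal liver (log2 -2.33 ± 0.50, SE; edgeR adjusted p = 0.00138). Rag1 had 11, 34 and 46 counts in the libraries labelled Lin28b knockout, against 270, 127 and 167 in wild-type fetal liver (log2 -2.54 ± 0.81; adjusted p = 0.0189). Both genes were still counted in every library of both groups, without overlap. The Rag1 call was lost without labelled knockout library 3 (adjusted p = 0.0728) or wild-type fetal liver library 1 (0.0718).

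Rag2 had 3.84, 4.46 and 5.38 CPM in the libraries labelled Lin28b knockout, against 42.7, 38.5 and 37.0 CPM in wild-type fetal liver (log2 -3.11 ± 0.34; edgeR adjusted p = 2.31e-06). Cd79b had 24.99, 18.5 and 19.0 CPM in the libraries labelled Lin28b knockout, against 77.1, 76.7 and 79.0 CPM in wild-type fetal liver (log2 -1.90 ± 0.13; adjusted p = 8.76e-09). Cd4 had 1.42, 1.11 and 0.457 CPM in the libraries labelled Lin28b knockout, against 15.25, 10.44 and 14.4 CPM in wild-type fetal liver (log2 -3.74 ± 0.46; adjusted p = 7.87e-06). Each of these 3 genes was lower in every labelled knockout library than in any of the wild-type fetal liver libraries.

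Of the 12 tested V(D)J and pre-receptor genes, the 3 called in this comparison were Rag1, Rag2 and Cd79b, all lower; the list's median log2 difference was -0.07, beside 0.00 over all tested genes. Of 21 lymphoid transcription factors, 9 were lower and 1 higher, with a median of -1.10, and Sox4, a factor of early lymphoid cells, averaged 53.9 ± 6.6 CPM in the libraries labelled Lin28b knockout and 397.7 ± 11.25 CPM in wild-type fetal liver (7.37-fold lower, edgeR adjusted p = 8.19e-12). Of 11 early lymphoid progenitor genes, 8 were lower, Il7r, Rag1 and Rag2 among them, and 1 was higher. Flt3 averaged 37.8 ± 10.02 CPM in the libraries labelled Lin28b knockout and 399.7 ± 17.9 CPM in wild-type fetal liver (10.6-fold lower, edgeR adjusted p = 1.83e-09). Of 12 IL-7 receptor signalling genes, 4 were lower, among them Il7r itself, the shared cytokine receptor chain Il2rg (4.04-fold, edgeR adjusted p = 8.10e-08) and Bcl2 (4.03-fold, 1.33e-10). Another 4 were higher, among them the STAT5 targets Pim1 (6.29-fold, 1.01e-07) and Cish (12.5-fold, 1.57e-06).

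Markers of other cell types moved with the labelled knockout. Summed erythroid markers reached 28500 to 33520 CPM in the libraries labelled Lin28b knockout, against 480.2 to 696.3 CPM in wild-type fetal liver, and 11 of 11 were higher. Summed macrophage markers stood at 636.7 to 710.0 CPM in the libraries labelled Lin28b knockout, against 148.0 to 171.7 CPM in wild-type fetal liver (11 of 12 higher). Summed hepatocyte markers stood at 428.9 to 1351 CPM in the libraries labelled Lin28b knockout, against 97.3 to 106.5 CPM in wild-type fetal liver (7 of 7 tested higher), and granulocyte markers, also compared above, at 2032 to 4422 CPM in the labelled knockout (8 of 9 higher). B cell markers other than Cd79b summed to 27.1 to 37.3 CPM in the libraries labelled Lin28b knockout and 15.0 to 30.9 CPM in wild-type fetal liver. The part of these cell types in the lower level of the 5 genes was not tested.

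**Figure D3:**
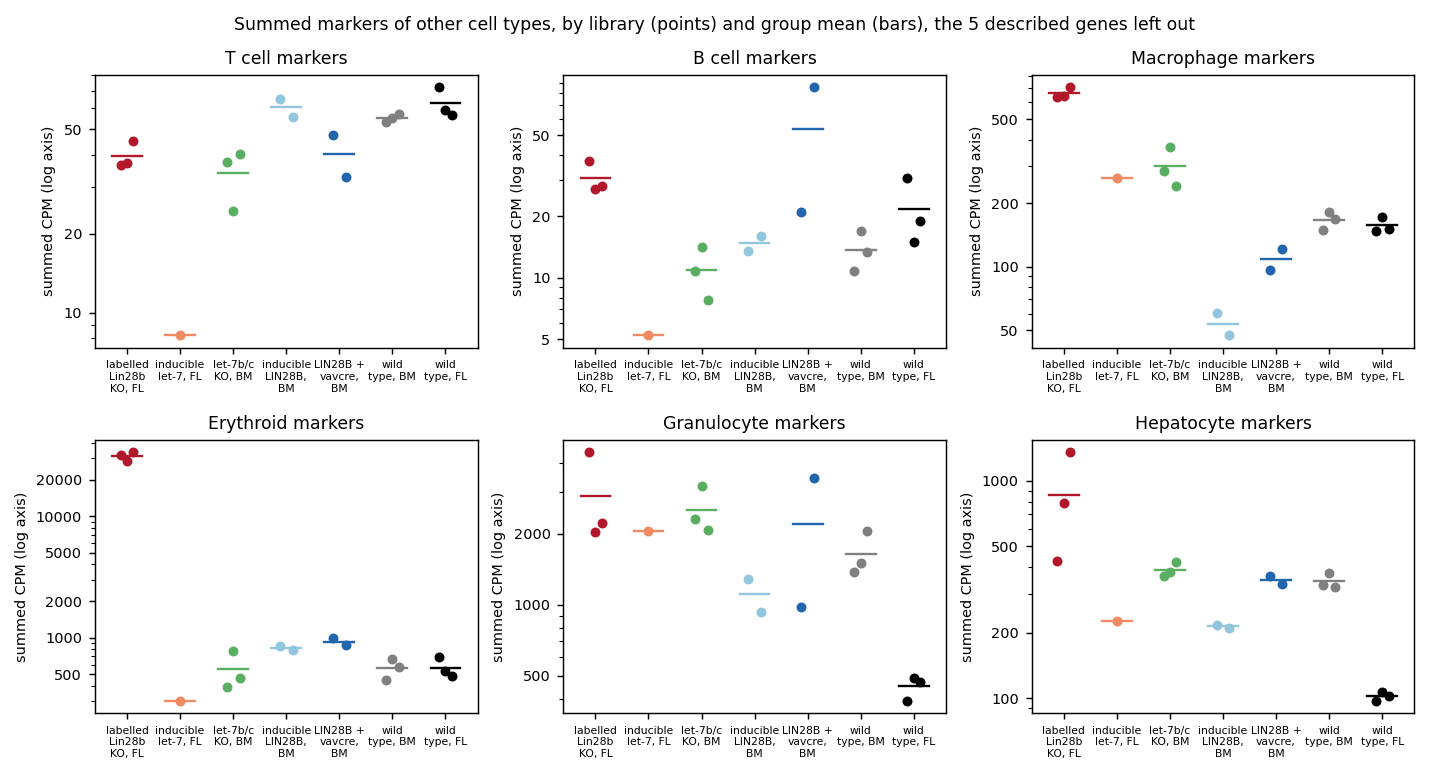
Summed CPM of 6 lists of markers of other cell types (vertical axis, log scale) in each library (points) with the group mean (bars), leaving Cd79b and Cd4 out of their lists. The 3 libraries labelled Lin28b knockout sit highest in the erythroid panel, at 28500 to 33520 CPM, and 1 library of inducible LIN28B with vavcre sits highest in the B cell panel, at 86.0 CPM.

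The inducible let-7 library, with no replicate and no test, held the lowest level of Il7r, Rag2 and Cd4 of the 7 groups. Of the 5 genes, 4 lay more than 4-fold below the wild-type fetal liver mean, as did 36.1% of all tested genes in this library, and 5 of 5 lay below the wild-type fetal liver range, as did 46.6% of tested genes. Il7r and Cd4 had no reads in the inducible let-7 library, which allows up to 0.116 CPM (3 counts). Il7r was therefore at least 243.0-fold lower there than the wild-type fetal liver mean of 28.25 ± 7.76 CPM, and Cd4 at least 115.1-fold lower than that of 13.4 ± 2.6 CPM. These bounds and the intervals that follow cover counting error only.

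Rag1 had 1 read in the inducible let-7 library, and the pooled wild-type fetal liver reads, at equal depth, were 250.6 times as high (95% counting interval 44.8 to 9917). Rag2 had 23 reads, or 0.891 CPM, in the inducible let-7 library, and the pooled wild-type fetal liver reads were 44.5 times as high (29.6 to 70.3). Cd79b kept 37.2 CPM in the inducible let-7 library (34.9 to 39.6), against 77.6 ± 1.2 CPM in wild-type fetal liver, a 2.08-fold lower level by pooled reads (1.94 to 2.24). Cd79b was thus much less reduced in this library than the other 4 genes. Tcf7 had no reads in this library either, while Iftap, the gene that overlaps both Rag transcripts, had its highest group level there, 77.9 CPM against 37.8 ± 2.7 CPM in wild-type fetal liver.

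With the inducible LIN28B lines in adult marrow averaged, none of the 5 genes passed the threshold against wild-type bone marrow. The count was 0 of 5 by edgeR, 0 of 5 by DESeq2, and 1 of 5, Rag2, at an unadjusted p under 0.05. Of all tested genes, 14.4% were called (6.59% higher and 7.86% lower). The comparison took the mean of the lines with and without vavcre, and each line alone was not tested against wild-type bone marrow. Both vavcre libraries lay above all 3 wild-type bone marrow libraries in Il7r, Rag2, Cd79b and Cd4. How many of all genes share this order was not counted, so it is not a result about these genes. The vavcre libraries had 5.70 and 6.54 CPM of Il7r, against up to 2.63 CPM in wild-type bone marrow. For Cd79b the values were 79.6 and 93.7 against up to 66.1 CPM, and for Cd4 7.59 and 7.76 against up to 6.79 CPM. The libraries without vavcre overlapped wild-type bone marrow in these genes, and Rag1 was nearly absent in each group. Rag2 averaged 11.9 ± 3.5 CPM over the 4 LIN28B libraries and 7.24 ± 1.89 CPM in wild-type bone marrow (SD, n = 4 and 3; log2 0.71 ± 0.30, 95% interval 0.07 to 1.36; edgeR adjusted p = 0.130). Its libraries overlapped, with 14.9 and 6.88 CPM for inducible LIN28B, 13.3 and 12.6 CPM for inducible LIN28B with vavcre, and up to 9.42 CPM in wild-type bone marrow.

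Il7r differed by log2 0.92 ± 0.50 between the LIN28B lines and wild-type bone marrow (95% interval -0.15 to 1.99; edgeR adjusted p = 0.240). Cd79b differed by log2 0.23 ± 0.11 (-0.0093 to 0.47; adjusted p = 0.190) and Cd4 by -0.10 ± 0.38 (-0.90 to 0.71; adjusted p = 0.913). Rag1 had 4 reads over the 4 LIN28B libraries and 1 read over the 3 wild-type bone marrow libraries, a ratio of 2.69 with a 95% counting interval of 0.266 to 132.5.

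The same lists were checked for the rest of the pathway. Of 12 IL-7 receptor signalling genes, 2 were higher in the LIN28B lines than in wild-type bone marrow, Il2rg at 269.2 ± 65.3 CPM in the LIN28B lines and 155.1 ± 10.2 CPM in wild-type bone marrow (1.70-fold, edgeR adjusted p = 0.00357) and Socs3, a feedback inhibitor of cytokine signals, at 12.2 ± 3.7 CPM in the LIN28B lines and 3.73 ± 0.81 CPM in wild-type bone marrow (3.23-fold, 0.00150). Bcl2 (1.44-fold, 0.000585) and Mcl1 (1.35-fold, 0.0173), both survival factors, were lower. None of the V(D)J and pre-receptor genes (12 tested), lymphoid transcription factors (21) or early lymphoid progenitor genes (11) was called. Of 14 tested T cell genes, 1 was higher and 0 lower, Cd3d (edgeR adjusted p = 0.00422). It had 62 and 44 counts with vavcre, 3 and 8 without it, and 0 in each wild-type bone marrow library. Hmga2, a let-7 target, averaged 74.6 ± 16.8 CPM in the LIN28B lines and 31.9 ± 3.5 CPM in wild-type bone marrow (2.29-fold higher, 0.000359), against 532.4 ± 11.2 CPM in wild-type fetal liver.

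Set against wild-type fetal liver, the LIN28B lines in adult marrow were lower in 4 of the 5 genes, where 17.7% of tested genes were called lower and 32.6% in either direction. This comparison shares its wild-type fetal liver libraries with those above. Il7r averaged 3.83 ± 2.71 CPM in the LIN28B lines and 28.25 ± 7.76 CPM in wild-type fetal liver (9.18-fold lower, edgeR adjusted p = 0.000103). Rag2 averaged 11.9 ± 3.5 CPM in the LIN28B lines and 39.4 ± 3.0 CPM in wild-type fetal liver (3.32-fold lower, adjusted p = 0.000318). Cd4 averaged 5.36 ± 2.74 CPM in the LIN28B lines and 13.4 ± 2.6 CPM in wild-type fetal liver (2.77-fold lower, adjusted p = 0.00690). The LIN28B libraries did not overlap those of wild-type fetal liver in any of these 3 genes. Rag1 had 4 reads in the LIN28B lines, 3 of them in inducible LIN28B library 1, and 564 in wild-type fetal liver (adjusted p = 4.34e-05; 0.000294 without that library). Cd79b averaged 74.0 ± 15.9 CPM in the LIN28B lines and 77.6 ± 1.2 CPM in wild-type fetal liver and did not pass (log2 -0.09 ± 0.11, 95% interval -0.33 to 0.15; adjusted p = 0.582); with total counts for scaling its sign turned, to 0.04.

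Within the LIN28B marrow libraries, Il7r and Cd79b were higher with vavcre than without it (2 of 5 called; 9.37% of tested genes were called higher and 20.6% in either direction). Il7r had 6.54 and 5.70 CPM with vavcre, against 0.971 and 2.10 CPM without it (3.95-fold higher; log2 1.98 ± 0.64, SE, n = 2 each; edgeR adjusted p = 0.0396). Cd79b had 93.7 and 79.6 CPM with vavcre, against 64.0 and 58.6 CPM without it (1.41-fold higher; log2 0.50 ± 0.15; adjusted p = 0.0254). In both genes the lower vavcre library lay above the higher library without it.

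Cd4 had 7.76 and 7.59 CPM with vavcre, against 3.70 and 2.36 CPM without it. Its libraries did not overlap, but it missed the threshold (log2 1.34 ± 0.51, 95% interval 0.26 to 2.42; edgeR adjusted p = 0.0747) and passed with DESeq2 (0.0403). Rag2 (log2 0.25 ± 0.39; adjusted p = 0.703) and Rag1, with 1 read with vavcre and 3 without it, did not pass.

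With 2 libraries a side these calls were not firm. The Il7r call was lost without inducible LIN28B library 1 (log2 1.54, adjusted p = 0.234) or 5 (log2 2.65, 0.0764), or vavcre library 4 (0.0731), and the Cd79b call without the same libraries (0.0607, 0.158 and 0.116). Both were also lost in a fit of these 4 libraries alone (Il7r 0.142, Cd79b 0.135).

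B cell genes stood beside these calls. Of 12 V(D)J and pre-receptor genes, 3 were higher with vavcre and 0 lower: Cd79b, Vpreb3 at 4.75 ± 2.48 CPM with vavcre and 0.602 ± 0.092 CPM without it (7.82-fold, edgeR adjusted p = 0.0228), and the B cell adaptor Blnk at 5.38 ± 4.98 CPM with vavcre and 0.963 ± 0.526 CPM without it (5.58-fold, 0.0377). Pou2af1, a B lineage coactivator, was the 1 lymphoid factor of 21 called (8.98-fold higher, 0.0367), and Il2rg was also higher (1.51-fold, 0.0373). The vavcre libraries differed from each other in B cell markers: Ms4a1, which encodes CD20, had 1.94 CPM in library 4 and 28.6 CPM in library 6, and Cd79a 10.3 CPM in library 4 and 25.5 CPM in library 6. The pre-receptor genes Igll1 and Vpreb1 had 0 CPM in library 4, and 7.85 and 2.91 CPM in library 6. Without vavcre, Igll1 had 0.668 and 0.269 CPM, and Vpreb1 3.095 and 2.525 CPM. B cell markers other than Cd79b summed to 20.9 and 86.0 CPM with vavcre and to 13.6 to 16.0 CPM without it. Without vavcre library 6, Il7r (log2 2.07, edgeR adjusted p = 0.0485) and Cd79b (log2 0.61, 0.0151) still passed, but the lone library 4 is then assumed to vary like the other groups, and its B cell sum and Cd79a were also above those without vavcre (Cd79a 4.07 and 4.51 CPM). The part of B cells in these calls was not tested. Of 7 tested markers of plasmacytoid dendritic cells, 1 was higher with vavcre and 1 lower. Siglech stood at 4.49 ± 0.92 CPM with vavcre and 0.0304 ± 0.0429 CPM without it. Bst2 went the other way, at 41.6 ± 3.3 CPM with vavcre and 56.5 ± 5.9 CPM without it (1.36-fold lower, edgeR adjusted p = 0.0298). The list summed to 59.2 and 61.7 CPM with vavcre and to 60.7 and 68.9 CPM without it, and most of each sum was Bst2. Ly6d, also on this list, had 6.33 and 7.34 CPM with vavcre and 1.64 and 0.752 CPM without it, and was not called. The part of such cells was not tested.

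**Figure D4:**
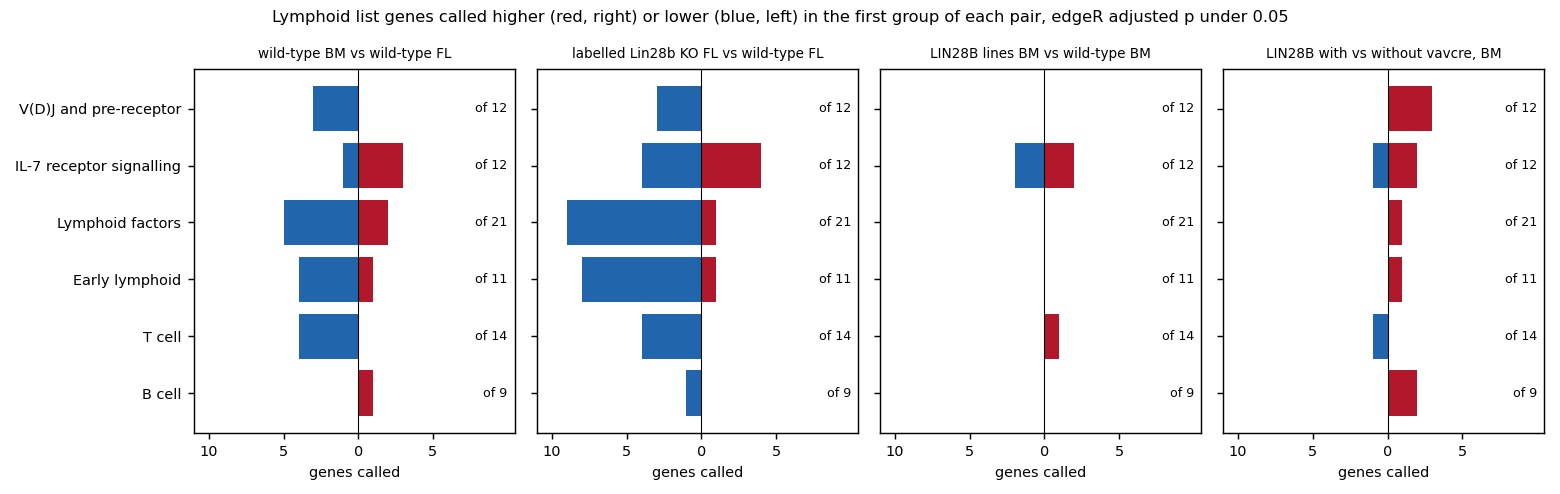
Number of tested genes called higher (red, to the right) or lower (blue, to the left) in the first group of each pair (edgeR adjusted p under 0.05), for 6 lymphoid lists in 4 comparisons, with the number tested at the right. The early lymphoid list had 8 of 11 genes lower in the libraries labelled Lin28b knockout and 4 of 11 lower in wild-type bone marrow. Il7r, Rag1 and Rag2 are among the lower genes in both. The V(D)J list had 3 of 12 higher with vavcre, Cd79b among them.

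In the bone marrow of let-7b/c knockout mice, none of the 5 genes was called against wild-type bone marrow (0 of 5 by edgeR and by DESeq2; 1, Rag1, at an unadjusted p under 0.05), where 2.25% of tested genes were called (1.33% higher and 0.922% lower). Hmga2, the let-7 target, averaged 7.80 ± 2.89 CPM in the let-7b/c knockout and 31.9 ± 3.5 CPM in wild-type bone marrow (4.09-fold lower, edgeR adjusted p = 2.79e-05). Rag1 had 13, 3 and 0 counts in the let-7b/c knockout libraries, against 1, 0 and 0 in wild-type bone marrow. Most of these reads came from 1 library, and the pooled ratio was 16.0 (95% counting interval 2.49 to 672.1; edgeR adjusted p = 0.241).

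Il7r had 3.79, 2.94 and 0.884 CPM in the let-7b/c knockout, against 0.496, 1.76 and 2.63 CPM in wild-type bone marrow, with overlapping libraries (log2 0.64 ± 0.53, 95% interval -0.48 to 1.77; edgeR adjusted p = 0.644). Cd4 had 3.41, 1.42 and 3.85 CPM in the let-7b/c knockout, against 3.52, 5.15 and 6.79 CPM in wild-type bone marrow (log2 -0.83 ± 0.41, -1.71 to 0.05; adjusted p = 0.375). Rag2 (log2 0.31, -0.37 to 0.99; adjusted p = 0.732) and Cd79b (log2 0.15, -0.10 to 0.41; 0.630) did not pass either. Bcl11a, a factor of early lymphoid cells, was the 1 early lymphoid gene called, at 56.3 ± 3.9 CPM in the let-7b/c knockout and 87.1 ± 4.8 CPM in wild-type bone marrow (1.55-fold lower, 0.0177).

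Ordered by mean level, wild-type fetal liver ranked highest for Il7r, Rag1, Rag2 and Cd4 and stood apart from the next group in each. For Il7r the next were inducible LIN28B with vavcre and the labelled Lin28b knockout, whose libraries overlapped, then the let-7b/c knockout, wild-type bone marrow and inducible LIN28B, which overlapped in turn. For Rag1 the next was the labelled knockout, whose lowest library (0.579 CPM) overlapped the highest of the let-7b/c knockout (0.703 CPM). For Rag2 the 4 adult groups overlapped in turn, the labelled knockout came next and overlapped the let-7b/c knockout (4.87 to 11.8 CPM) but not wild-type bone marrow, and the inducible let-7 library was lowest. For Cd79b the highest was inducible LIN28B with vavcre (79.6 to 93.7 CPM), just above wild-type fetal liver (76.7 to 79.0 CPM), and the lowest was the labelled knockout. For Cd4, inducible LIN28B with vavcre came second, apart from both neighbours.

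Across the 17 libraries, which share groups and depth, the genes most like each of the 5 were named by Pearson's correlation of log2 CPM among 8237 genes, as a description. They were Tmem108 (0.93), Tsr1 and Mzb1 for Il7r; Marcks (0.91), Ndufaf4 and P2ry12 for Rag1; Spindoc (0.95), Uaca and Fzd9 for Rag2; Traf3ip3 (0.98), Flt3 (0.98) and Usp28 for Cd79b; and Mbtd1 (0.93), Bod1 and Gimap7 for Cd4. Mzb1 averaged 5.87 CPM in the labelled knockout, 1.197 CPM in wild-type bone marrow and 30.25 CPM in wild-type fetal liver, close in order to Il7r. Among the 5, the correlation was highest for Rag2 with Cd4 (0.86) and 0.50 for Rag1 with Rag2.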

How the data were processed

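Sorted common myeloid progenitors were measured by RNA-seq in 17 libraries of 7 groups, grouped by source labels. Per the labels' protocols, Trizol total RNA was made into libraries with Clontech's SMARTer ultra low input chemistry. The deposited values are raw counts per RefSeq transcript (33818 accessions); cutadapt, TopHat2, HTSeq and the build mm10 are listed in the submitters' processing notes, without versions or a strand setting. Reads set aside as ambiguous (23.8% to 29.8% of uniquely placed reads) or outside features (8.87% to 19.3%) stayed out of library sizes. The planned test for gene counts was run on transcript counts summed by gene, named from RefSeq (33435 accessions) or GENCODE (191), with 192 unnamed.

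CPM use TMM-scaled totals. All 17 libraries entered 1 edgeR 4.0.16 quasi-likelihood fit (R 4.3.3) of 13558 genes passing filterByExpr, with a mean for each of 7 groups, which left 10 residual degrees of freedom. Genes with a Benjamini-Hochberg adjusted p under 0.05 were called; a log2 difference is the first-named group minus the second. The fit was tested on simulated data. Alternatives were other scalings, no filter, DESeq2 1.42.0, the compared groups alone, genes of 1 transcript, a replicate block and each library left out. Bounds at 0 use 3 counts. Sequences are from RefSeq and 3′ UTRs from GENCODE vM21.

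The genes described and the lists were chosen with earlier results of these data known. Beside the 5 genes, the text names up to 3 called genes per list, direction and comparison by smallest p, cell type markers, and the 3 genes most correlated with each gene (at least 5 CPM in a group); Iftap is named for its overlap with Rag1 and Rag2. Some genes that this rule selects are left out of the text.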

Additional observations from a re-analysis of the deposited data

Results flagged for a closer look

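The difference between the inducible LIN28B marrow lines, which share the induction and differ in vavcre, is a test of 2 groups against each other. Il7r was higher with vavcre by log2 1.98 (6.54 and 5.70 CPM with vavcre, 0.971 and 2.10 CPM without it), and Cd79b by log2 0.50 (93.7 and 79.6 CPM with vavcre, 64.0 and 58.6 CPM without it). Both calls rested on 2 libraries a side and were lost in a fit of those 4 libraries alone. No group had 4 or more libraries, so single libraries were not tested as outliers.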

How the results depend on the processing

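Over the alternatives, 356 of the members' log2 values kept direction and side of the threshold, 18 lost a call, 3 gained one and 10 changed sign. No label says whether library numbers pair the samples. The 12 same-number pairs had residual correlations of -0.08 to 0.03, which cannot decide it with so few libraries a group. With the replicate block, which leaves 4 residual degrees of freedom, genes called numbered 2185 and without it 3677 (wild-type bone marrow against fetal liver), 3073 and 5941 (labelled knockout), 274 and 1958 (LIN28B lines against wild-type bone marrow), 435 and 2799 (vavcre), and 35 and 305 (let-7b/c knockout). Of the 5 genes it called 3 in the labelled knockout and 0 for vavcre, and changed the sign of Rag1 in the labelled knockout (log2 1.23), Rag1 (0.0059) and Rag2 (-0.12) for vavcre and Cd79b in the let-7b/c knockout (-0.0138). The compared groups alone gave 1132 genes for the LIN28B lines against wild-type bone marrow, 422 for vavcre and 0 of the members for vavcre. DESeq2 gave 783 for the let-7b/c knockout. Leaving out single libraries gave 1083 to 2670 genes for the LIN28B lines against wild-type bone marrow, 1379 to 3149 for vavcre, 95 to 376 for the let-7b/c knockout and 0 to 2 members for vavcre. It changed signs within log2 -0.87 to 2.97 (Rag1) and -0.30 to 0.17 (Cd4) for the LIN28B lines against wild-type bone marrow, and -3.83 to 2.11 (Rag1) and -0.20 to 0.91 (Rag2) for vavcre. Total counts turned Cd79b in the LIN28B lines against wild-type fetal liver (log2 0.0394). They moved the median of all genes to 0.19, against 0.08 with TMM, for wild-type marrow and to -0.19, against 0.00, for the labelled knockout, and the share of calls that were higher to 61.9% for wild-type marrow, against 48.7% with TMM, and to 35.3% for the labelled knockout, against 47.5%. The causes were not tested. Rag1 in adult marrow is limited by depth, at 0 to 13 reads a library. Among the genes most like each member, a rank correlation shared 1, 0, 1, 1 and 2 of 3.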
